A study of Homo sapiens with 12 samples.

Results

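In 26 of the 25049 genes counted in MDA-MB-231b breast cancer cells, transcripts were present in 1 genotype and at least 8 times scarcer in the other. This held both with and without paclitaxel, and in some genes the low genotype had 3 reads or fewer in a group. Of these genes, 18 were high in GLI2 KO cells and 8 were high in WT cells, and the sets are described apart. A gene was included when the mean of the 3 samples of 1 genotype was at least 50 normalized counts, and at least 8 times the mean of the other genotype plus 1, in paclitaxel and again in DMSO. A normalized count is a read count divided by the size factor of its sample, as the authors deposited it. Since the genotype difference chose the genes, that difference is given below as a description with no test. No gene met the rule in opposite directions in the 2 treatments (0 genes). The rule was met only in paclitaxel by 14 more genes high in GLI2 KO and 1 high in WT, and only in DMSO by 32 more genes high in GLI2 KO and 16 high in WT.

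The cells came from MDA-MB-231, a human breast cancer line classed as triple-negative, that is, without hormone receptors or HER2 amplification, through a bone-tropic derivative recovered from the marrow of athymic nude mice after intratibial and then intracardiac injection. All 4 groups share that derivative and a lentiviral CRISPR-Cas9 system. GLI2 KO cells carried a guide RNA against GLI2 (sgGLI2), and WT cells carried a non-targeted guide. The groups, with 3 samples each, were GLI2 KO cells given 50 nM paclitaxel for 2 days, GLI2 KO cells given DMSO, WT cells given 50 nM paclitaxel and WT cells given DMSO. The sources used here do not say whether either genotype was a pool or a single clone. Differences between clones and effects of GLI2 cannot be told apart in this design. The labels do not tell whether the 3 samples of a group were separate cultures, and the p-values below may therefore reflect technical spread alone.

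GLI2 is a zinc-finger transcription factor that carries Hedgehog signals to the genome, and paclitaxel stabilises microtubules and arrests dividing cells. In mammalian cells a gene's silent or active state can be carried through cell divisions by chromatin and by DNA methylation at the CG dinucleotides of its promoter. CpG-rich promoters usually belong to widely used genes, whereas tissue-restricted genes more often have CpG-poor ones. Only RNA was measured here.

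Libraries held 83230948 to 109018776 counts. Where a gene had no read in the 3 libraries of a group, 3 counts over that group were taken as the floor for a fold. Among replicates, GLI2 KO DMSO replicate 3 stood farthest from its group, with a chi-square per degree of freedom of 13.7 and 17.9 against replicates 1 and 2. The other replicate pairs ran from 2.90 to 11.7 (GLI2 KO paclitaxel replicates 1 and 3), with 11.4 for WT DMSO replicates 1 and 2. Without GLI2 KO DMSO replicate 3, 24 of the 26 genes still met the rule, and CST4 and HFM1 did not. GLI2 itself had normalized counts of 361, 378 and 399 in paclitaxel-treated GLI2 KO samples, against 585, 512 and 451 in paclitaxel-treated WT samples. In DMSO it had 842, 749 and 913 in GLI2 KO samples, against 947, 1046 and 959 in WT samples. The log2 difference of GLI2 KO to WT was -0.44 ± 0.090 in paclitaxel (SE, edgeR quasi-likelihood test, adjusted p = 0.000243) and -0.23 ± 0.080 in DMSO (adjusted p = 0.0253). GLI2 transcript remained in the GLI2 KO cells, and since a guide can disrupt the protein without removing the transcript, these values check the labels only in part. The DMSO call was lost without GLI2 KO DMSO replicate 1 (adjusted p = 0.0577), GLI2 KO DMSO replicate 2 (0.183, log2 difference -0.15) or WT DMSO replicate 2 (0.11).

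RefSeq promoters, running from 250 bases before to 50 bases after the annotated start on GRCh38.p14, were found for 14 of the 26 genes. They are shown for the 4 of these with the highest levels in their high genotype, because the promoter is the stretch of DNA at which transcription of each gene starts. The sequences run 5′ to 3′ along the gene's strand, and capitals mark each CG dinucleotide, the site of DNA methylation in human cells. Of the 4, SIGLEC15, SESN3 and SATB1 were high in GLI2 KO cells and TRIM61 was high in WT cells. The windows were SIGLEC15 (chr18:45825425-45825724, plus strand, CpG ratio 0.298), SESN3 (chr11:95232426-95232725, minus strand, CpG ratio 0.530), SATB1 (chr3:18445543-18445842, minus strand, CpG ratio 0.499) and TRIM61 (chr4:164977608-164977907, minus strand, CpG ratio 0.421).
SIGLEC15: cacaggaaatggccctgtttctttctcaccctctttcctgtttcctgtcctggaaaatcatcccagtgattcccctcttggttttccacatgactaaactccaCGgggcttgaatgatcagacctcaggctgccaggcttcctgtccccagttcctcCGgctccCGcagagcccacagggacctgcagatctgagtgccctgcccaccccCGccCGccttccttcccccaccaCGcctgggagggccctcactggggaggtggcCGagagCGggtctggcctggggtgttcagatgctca
SESN3: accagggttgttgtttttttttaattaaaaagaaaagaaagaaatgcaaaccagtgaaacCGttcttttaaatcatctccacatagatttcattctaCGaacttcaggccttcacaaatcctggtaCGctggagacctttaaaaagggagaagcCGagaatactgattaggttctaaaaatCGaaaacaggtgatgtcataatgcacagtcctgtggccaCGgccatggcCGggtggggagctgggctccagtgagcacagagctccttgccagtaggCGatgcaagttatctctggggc
SATB1: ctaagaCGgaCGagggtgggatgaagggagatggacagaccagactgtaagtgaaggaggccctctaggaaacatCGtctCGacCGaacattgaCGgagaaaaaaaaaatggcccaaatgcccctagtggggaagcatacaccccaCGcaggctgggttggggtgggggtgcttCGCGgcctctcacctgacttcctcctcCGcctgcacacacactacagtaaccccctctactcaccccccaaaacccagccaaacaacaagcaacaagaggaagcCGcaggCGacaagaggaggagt
TRIM61: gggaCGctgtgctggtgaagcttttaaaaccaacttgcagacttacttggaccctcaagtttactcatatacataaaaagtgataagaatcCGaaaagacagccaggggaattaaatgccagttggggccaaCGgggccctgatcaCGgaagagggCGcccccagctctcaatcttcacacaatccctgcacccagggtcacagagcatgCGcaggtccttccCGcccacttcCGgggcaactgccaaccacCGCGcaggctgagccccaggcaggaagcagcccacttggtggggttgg

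The 4 windows held 8, 8, 12 and 10 CG dinucleotides each. The CpG ratio divides the CG dinucleotides seen by those expected from the window's C and G content, and 0.6 is a usual lower bound for a CpG island. Among genes high in GLI2 KO, 2 of the 10 with an entry reached 0.6, namely HFM1 at 0.862 and PPFIA2 at 0.633. The lowest ratios of that set were 0.210 at ENAM and 0.219 at DDO. Among genes high in WT, 1 of 4 reached it, which was KIAA0040 at 0.669, and FABP6 had 0.121. Over the 13024 tested genes with an entry, 76.5% reached 0.6 and the median was 0.816, against medians of 0.502 for genes high in GLI2 KO and 0.472 for genes high in WT. These shares describe 14 genes only, since the other 12 had no entry. They also take 1 annotated start per gene, and which start these cells used was not tested. The windows of FABP6 and CNTN1, for example, lie inside the gene, downstream of its outermost annotated start. The 9-letter GLI consensus GACCACCCA, searched on both strands, was in 0 of the 14 windows and in 0.236% of all 35116 promoters of the same length. Its absence says only that these letters are not in these windows.

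**Figure D1:**
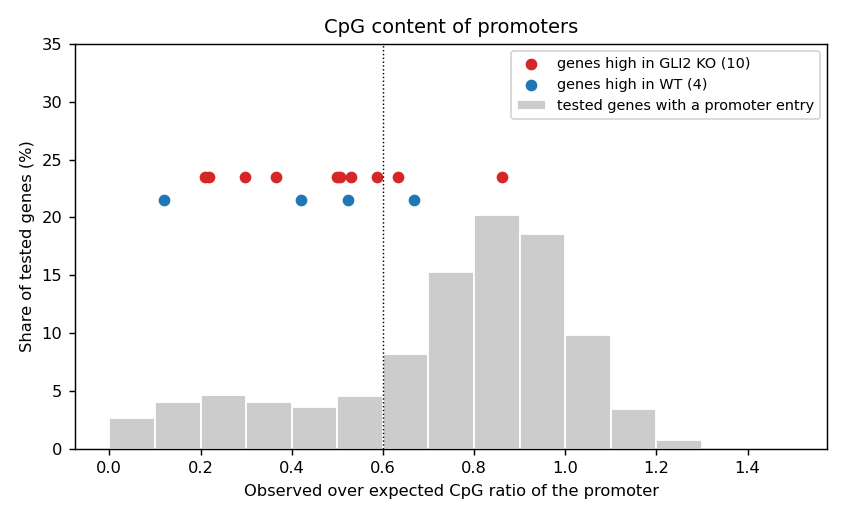
Distribution of the observed over expected CpG ratio of 300-base promoters (x axis) among tested genes with a RefSeq entry (grey bars, share of genes in percent on the y axis). Each red point is a gene high in GLI2 KO and each blue point a gene high in WT, placed at its ratio with no meaning in height; 3 of the 14 points lie right of the dotted line at 0.6, where 76.5% of tested genes lie.

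In every one of the 26 genes the 3 samples of 1 genotype lay above the 3 of the other in each treatment, which the rule nearly fixes. Over all 21974 tested genes, GLI2 KO samples lay wholly above WT samples in 28.4% of genes in paclitaxel and 24.0% in DMSO, and wholly below in 26.7% and 24.3%. Means of the 18 genes in GLI2 KO cells ran from 66.5 to 906 normalized counts in paclitaxel and from 57.5 to 785 in DMSO. Their means in WT cells ran from 0.298 to 92.6 in paclitaxel and from 0.294 to 37.6 in DMSO. Means of the 8 genes in GLI2 KO cells ran from 0 to 26.6 in paclitaxel and from 0 to 12.4 in DMSO. Their means in WT cells ran from 71.4 to 2055 in paclitaxel and from 55.9 to 570.2 in DMSO. In bulk RNA, a gene used by fewer cells and a gene used less by every cell cannot be told apart.

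**Figure D2:**
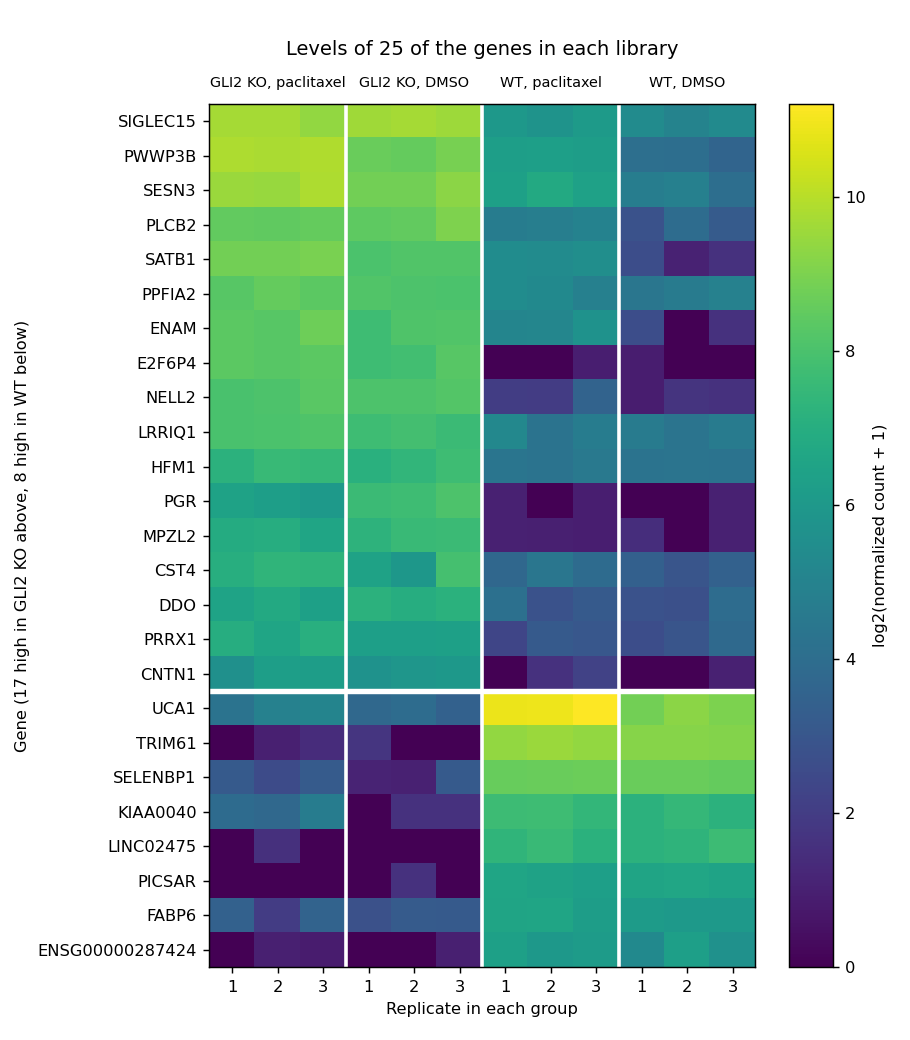
Heat map of log2(normalized count + 1) for 25 genes (y axis) in each of the 12 libraries (x axis, 3 replicates per group). The 17 genes high in GLI2 KO are above the white line and the 8 high in WT below it; dark low blocks include E2F6P4, PGR and MPZL2 in WT and LINC02475, PICSAR, ENSG00000287424 and TRIM61 in GLI2 KO, each at 3 counts or fewer per group.

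Among genes high in GLI2 KO, 5 are regulators of transcription or chromatin, or copies of one. SATB1, a chromatin organiser that anchors loops at AT-rich DNA (chromosome 3, 18345387 to 18445588, minus strand), had 456, 449.5 and 489.8 normalized counts in paclitaxel-treated GLI2 KO samples, against 42.2, 41.2 and 45.6 in paclitaxel-treated WT samples. Without drug the values were 259, 286 and 289.9 in GLI2 KO samples, against 5.29, 1.12 and 2.05 in WT samples. All GLI2 KO values lay above all WT values, and within WT the paclitaxel samples lay above the DMSO samples. The log2 difference of GLI2 KO to WT was 3.43 ± 0.13 in paclitaxel and 6.49 ± 0.22 in DMSO (here and below, ± on the log2 scale gives an approximate SE).

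PWWP3B encodes a protein with a PWWP domain, a module that binds histones (chromosome X, 106168305 to 106208956, plus strand). It had 915, 875 and 927 normalized counts in paclitaxel-treated GLI2 KO samples, against 76.2, 79.4 and 75.1 in paclitaxel-treated WT samples. Without drug it had 400.1, 372 and 473 in GLI2 KO samples, against 15.9, 15.7 and 11.3 in WT samples. The paclitaxel samples were the high ones in each genotype, and the genotypes did not overlap, with log2 differences of 3.55 ± 0.10 in paclitaxel and 4.85 ± 0.15 in DMSO. PRRX1 encodes a homeobox factor of mesenchymal cells (chromosome 1, 170662728 to 170739419, plus strand). It averaged 118 ± 19.8 in paclitaxel-treated GLI2 KO samples and 6.44 ± 2.06 in paclitaxel-treated WT samples (SD, n = 3 each). In DMSO the means were 79.7 ± 1.63 in GLI2 KO samples and 8.45 ± 4.29 in WT samples (SD, n = 3 each). Its DMSO difference was among the narrower ones, since the lowest GLI2 KO sample was 5.88 times the highest WT sample.

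PGR encodes the progesterone receptor, a hormone-gated transcription factor that triple-negative tumours lack by definition (chromosome 11, 101029624 to 101130524, minus strand). Its normalized counts were 86.6, 76.7 and 65.1 in paclitaxel-treated GLI2 KO samples, against 1.03, 0 and 0.894 in paclitaxel-treated WT samples. With DMSO they were 198, 208 and 269.8 in GLI2 KO samples, against 0, 0 and 1.03 in WT samples. WT cells held next to no PGR reads, 2 counts over the 3 paclitaxel samples and 1 over the 3 DMSO samples, against 243 and 640 counts in GLI2 KO. The ratio of GLI2 KO to WT reads per library total was 116 (95% interval 31.6 to 959) in paclitaxel and 672 (95% interval 120.2 to 26577) in DMSO, where intervals cover counting error only. Read per kilobase of annotated exon, PGR was near the bottom of the set, at 9.79 normalized counts per kb over both treatments in GLI2 KO cells, with a set range of 8.27 to 558.

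E2F6P4 is a processed pseudogene of E2F6, a repressor of the E2F family (chromosome X, 136097835 to 136098348, minus strand). It had 332, 309.9 and 329.8 normalized counts in paclitaxel-treated GLI2 KO samples, against 0, 0 and 0.894 in paclitaxel-treated WT samples. The DMSO samples had 212, 222 and 316 in GLI2 KO, against 0.881, 0 and 0 in WT. Only 1 read was counted in each WT group, against 1045 reads in paclitaxel and 711 in DMSO for GLI2 KO, the widest separation among the genes high in GLI2 KO. The ratio of GLI2 KO to WT reads was 994 (95% interval 178 to 39284) in paclitaxel and 746 (95% interval 134 to 29521) in DMSO. The parent gene E2F6 averaged 3783 ± 158 in paclitaxel-treated GLI2 KO samples and 3941 ± 161 in paclitaxel-treated WT samples, and 3647 ± 46.1 in DMSO-treated GLI2 KO samples and 3460 ± 89.8 in DMSO-treated WT samples (SD, n = 3 each). Reads of a pseudogene and its parent can be confused in counting, so the E2F6P4 level is uncertain, and the part of shared reads was not tested.

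Another 4 genes high in GLI2 KO encode cell-surface or junction-associated proteins. SIGLEC15, a sialic-acid-binding lectin known from osteoclasts and tumour-associated macrophages (chromosome 18, 45825512 to 45844080, plus strand), had 828, 832 and 679 normalized counts in paclitaxel-treated GLI2 KO samples, against 62.8, 52.3 and 67.1 in paclitaxel-treated WT samples. Under DMSO it had 773, 825 and 756 in GLI2 KO samples, against 41.4, 31.4 and 40.01 in WT samples. GLI2 KO samples lay close together across both treatments, and the log2 differences to WT were 3.67 ± 0.11 in paclitaxel and 4.37 ± 0.12 in DMSO. MPZL2, an immunoglobulin-domain adhesion protein of epithelia (chromosome 11, 118253403 to 118264536, minus strand), had 118, 124 and 93.999 in paclitaxel-treated GLI2 KO samples, against 1.03, 1.005 and 0.894 in paclitaxel-treated WT samples. Under DMSO, MPZL2 had 150.0, 194 and 196 in GLI2 KO samples, against 1.76, 0 and 1.03 in WT samples. WT cells gave 3 MPZL2 reads in each treatment, and the ratio of GLI2 KO to WT reads was 113 (95% interval 38.4 to 551) in paclitaxel and 179 (95% interval 60.96 to 872) in DMSO.

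CNTN1 encodes contactin, an adhesion protein anchored to the neuronal membrane (chromosome 12, 40692442 to 41072418, plus strand). Its normalized counts were 48.3, 77.7 and 73.4 in paclitaxel-treated GLI2 KO samples, against 0, 2.01 and 3.58 in paclitaxel-treated WT samples. In DMSO they were 51.2, 58.8 and 62.4 in GLI2 KO samples, against 0, 0 and 1.03 in WT samples. CNTN1 had the lowest level of the 18 genes, 61.98 on average over both treatments in GLI2 KO cells, and its WT reads numbered 6 in paclitaxel and 1 in DMSO. PPFIA2 encodes liprin-alpha-2, a scaffold of the presynaptic active zone (chromosome 12, 81257975 to 81759553, minus strand). It had 316, 381 and 331 in paclitaxel-treated GLI2 KO samples, against 43.2, 39.2 and 28.6 in paclitaxel-treated WT samples. With DMSO, PPFIA2 had 288, 272 and 263 in GLI2 KO samples, against 20.3, 24.7 and 29.7 in WT samples. WT cells kept a low PPFIA2 level in every sample, and the log2 differences were 3.21 ± 0.14 in paclitaxel and 3.47 ± 0.16 in DMSO. Of its annotated exon bases, 20.5% overlap other annotated genes, the largest part being with ACSS3 on the other strand. The log2 difference of ACSS3, 0.20 ± 0.065 in paclitaxel and 0.12 ± 0.065 in DMSO, was far smaller. The other overlapping genes were not examined. Markers of neural cells summed to 3.96 to 4.98 CPM (counts scaled to library size) in paclitaxel-treated GLI2 KO samples and 4.58 to 5.42 CPM in paclitaxel-treated WT samples, and to 1.72 to 2.18 CPM in DMSO-treated GLI2 KO samples and 1.86 to 2.10 CPM in DMSO-treated WT samples. None of the 3 neural markers in the count table passed between genotypes in either treatment, and the defining markers SOX10 and NEFL had no entry in it.

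Secreted products were also among the genes high in GLI2 KO. NELL2, a secreted glycoprotein with EGF-like repeats that guides axons (chromosome 12, 44508275 to 44921848, minus strand), had 251, 269.5 and 319.9 normalized counts in paclitaxel-treated GLI2 KO samples, against 3.09, 3.01 and 10.7 in paclitaxel-treated WT samples. The values in DMSO were 269.8, 272 and 299 in GLI2 KO samples, against 0.881, 2.24 and 2.05 in WT samples. The means in GLI2 KO cells were nearly the same in both treatments, and the log2 differences to WT were 5.56 ± 0.23 in paclitaxel and 7.30 ± 0.29 in DMSO. ENAM, the enamel matrix protein of developing teeth (chromosome 4, 70628744 to 70686816, plus strand), had 328, 309.9 and 426 in paclitaxel-treated GLI2 KO samples, against 32.9, 34.2 and 51.9 in paclitaxel-treated WT samples. Under DMSO, ENAM had 208, 281 and 287 in GLI2 KO samples, against 5.29, 0 and 2.05 in WT samples. As with SATB1, the WT level was close to 0 in DMSO and higher in paclitaxel, and the log2 differences were 3.14 ± 0.21 in paclitaxel and 6.55 ± 0.36 in DMSO.

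CST4 encodes cystatin S, a salivary inhibitor of cysteine proteases (chromosome 20, 23685640 to 23689040, minus strand). It had 129.9, 158 and 156 normalized counts in paclitaxel-treated GLI2 KO samples, against 12.4, 20.1 and 14.3 in paclitaxel-treated WT samples. In DMSO it had 87.2, 59.9 and 235 in GLI2 KO samples, against 9.69, 6.73 and 10.3 in WT samples. GLI2 KO DMSO replicate 3 held far more CST4 than the other two, which gave that group a coefficient of variation (SD over mean) of 73.9%, the widest of any gene and group in which the gene was high. Without that library, CST4 no longer met the rule. The neighbouring paralog CST1 also differed between genotypes. CST2 did not pass, at -0.10 ± 0.24 on the log2 scale in paclitaxel and -0.29 ± 0.30 in DMSO, and CST3 differed by 0.22 and 0.37. The family's genes are close copies between which reads can be exchanged, so single members are uncertain.

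Another 5 genes high in GLI2 KO act inside the cell in signalling, stress or DNA metabolism, or have no role named here. SESN3, a sestrin that restrains mTORC1 under nutrient and oxidative stress (chromosome 11, 95165513 to 95232541, minus strand), had 736, 711 and 905 normalized counts in paclitaxel-treated GLI2 KO samples, against 81.3, 112 and 84.96 in paclitaxel-treated WT samples. Without drug the values were 457, 454 and 616 in GLI2 KO samples, against 25.6, 28.05 and 15.4 in WT samples. SESN3 lay close to the rule's bound in paclitaxel, where its log2 difference was 3.08 ± 0.16, against 4.47 ± 0.21 in DMSO. Its relatives had smaller differences in the same direction: SESN1 by 0.17 ± 0.060 in paclitaxel and 0.21 ± 0.060 in DMSO, and SESN2 by 0.96 ± 0.15 and 0.44 ± 0.16 (edgeR, adjusted p = 0.0259, 0.00644, 0.000769 and 0.0575). PLCB2, a phospholipase C activated by G proteins (chromosome 15, 40278176 to 40307935, minus strand), had 361, 351 and 379 in paclitaxel-treated GLI2 KO samples, against 24.7, 27.1 and 30.4 in paclitaxel-treated WT samples. Under DMSO, PLCB2 had 343, 365 and 519 in GLI2 KO samples, against 6.17, 14.6 and 8.21 in WT samples. Its log2 differences were 3.71 ± 0.18 in paclitaxel and 5.45 ± 0.22 in DMSO, and its WT samples were higher in paclitaxel than in DMSO.

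HFM1, a DNA helicase of meiotic recombination (chromosome 1, 91260766 to 91404869, minus strand), had 148, 189 and 174 normalized counts in paclitaxel-treated GLI2 KO samples, against 19.6, 18.1 and 22.4 in paclitaxel-treated WT samples. In DMSO, HFM1 had 137, 167 and 210.4 in GLI2 KO samples, against 18.5, 19.1 and 18.5 in WT samples. HFM1 was low but never absent in WT cells, and its means in both treatments were close within each genotype.

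LRRIQ1 (chromosome 12, 85036314 to 85264457, plus strand) had 253, 262 and 278 normalized counts in paclitaxel-treated GLI2 KO samples, against 36.03, 18.1 and 25.04 in paclitaxel-treated WT samples. Under DMSO it had 211, 233 and 197 in GLI2 KO samples, against 24.7, 19.1 and 24.6 in WT samples, and the genotypes differed by 3.32 ± 0.17 in paclitaxel and 3.22 ± 0.18 in DMSO on the log2 scale. DDO, the enzyme that oxidises D-aspartate (chromosome 6, 110391771 to 110415562, minus strand), averaged 93.2 ± 15.2 in paclitaxel-treated GLI2 KO samples and 10.2 ± 5.54 in paclitaxel-treated WT samples (SD, n = 3 each). In DMSO the DDO means were 138 ± 10.01 in GLI2 KO samples and 8.71 ± 4.90 in WT samples (SD, n = 3 each). DDO had the narrowest gap of the 26 genes, since in paclitaxel its lowest GLI2 KO sample was 4.91 times its highest WT sample.

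Of the 8 genes high in WT cells, 3 are annotated long noncoding RNAs and another, ENSG00000287424, has no symbol or position in the annotation used. UCA1, an RNA first described in bladder cancer (chromosome 19, 15828206 to 15836326, plus strand), had 18.1, 29.5 and 32.2 normalized counts in paclitaxel-treated GLI2 KO samples, against 1865, 1939 and 2362 in paclitaxel-treated WT samples. The values in DMSO were 12.8, 14.4 and 10.1 in GLI2 KO samples, against 457, 617 and 514 in WT samples. UCA1 reached the highest level of all 26 genes in paclitaxel-treated WT samples, and the log2 difference of GLI2 KO to WT was -6.25 ± 0.16 in paclitaxel and -5.39 ± 0.22 in DMSO. Of its exon bases 13.6% overlap other annotated genes, the largest part being with LINC01764 on the other strand. The strand setting used in counting is unknown here.

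LINC02475 (chromosome 4, 44016861 to 44022063, plus strand) had 0, 1.97 and 0 normalized counts in paclitaxel-treated GLI2 KO samples, against 162, 191 and 143 in paclitaxel-treated WT samples. In DMSO it was at 0 in all 3 GLI2 KO samples, against 146, 155 and 204 in WT samples. The WT to GLI2 KO ratio of reads was 267 (95% interval 73.4 to 2207) in paclitaxel, and WT was at least 159.7-fold higher in DMSO, taking 3 counts over the GLI2 KO group as the floor. PICSAR, first described in squamous skin carcinoma (chromosome 21, 44999208 to 45004727, minus strand), was at 0 in all 3 paclitaxel-treated GLI2 KO samples, against 94.7, 87.4 and 79.6 in paclitaxel-treated WT samples. In DMSO, PICSAR had 0, 2.06 and 0 in GLI2 KO samples, against 91.7, 98.7 and 90.3 in WT samples. WT was at least 93.9-fold higher in paclitaxel, and the WT to GLI2 KO ratio was 133 (95% interval 36.6 to 1107) in DMSO. ENSG00000287424 had 0, 0.984 and 0.825 in paclitaxel-treated GLI2 KO samples, against 82.4, 61.3 and 70.6 in paclitaxel-treated WT samples. In DMSO it had 0, 0 and 1.01 in GLI2 KO samples, against 38.8, 79.7 and 49.2 in WT samples, where replicate 2 was the high one.

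Among the 4 protein-coding genes high in WT, TRIM61 belongs to the TRIM family, whose members often act as ubiquitin ligases (chromosome 4, 164954446 to 164977668, minus strand). It had 0, 0.984 and 1.65 normalized counts in paclitaxel-treated GLI2 KO samples, against 675, 741 and 675 in paclitaxel-treated WT samples. Without drug the values were 2.33, 0 and 0 in GLI2 KO samples, against 579, 576 and 556 in WT samples. GLI2 KO cells gave 3 TRIM61 reads in paclitaxel and 2 in DMSO, against 2148 and 1712 in WT cells, and the WT to GLI2 KO ratio was 753 (95% interval 257 to 3654) in paclitaxel and 815 (95% interval 225 to 6739) in DMSO. Other annotated genes overlap 33.2% of TRIM61's exon bases, the largest part being a processed pseudogene on the same strand, so reads may be shared. SELENBP1, a selenium-binding enzyme that oxidises methanethiol and is often low in tumours (chromosome 1, 151364302 to 151372733, minus strand), had 8.06, 4.92 and 8.25 in paclitaxel-treated GLI2 KO samples, against 384, 398 and 411 in paclitaxel-treated WT samples. Under DMSO, SELENBP1 had 1.16, 1.03 and 8.05 in GLI2 KO samples, against 401, 395 and 371 in WT samples. Its WT samples were among the tightest of the set, and its log2 difference was -5.78 ± 0.20 in paclitaxel and -6.72 ± 0.23 in DMSO.

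KIAA0040 (chromosome 1, 175156987 to 175192999, minus strand) had 14.1, 12.8 and 24.7 normalized counts in paclitaxel-treated GLI2 KO samples, against 202, 209 and 171 in paclitaxel-treated WT samples. Under DMSO it had 0, 2.06 and 2.01 in GLI2 KO samples, against 145, 174 and 145 in WT samples. GLI2 KO cells held almost none in DMSO and a low level in paclitaxel, and the log2 difference was -3.45 ± 0.21 in paclitaxel and -6.64 ± 0.35 in DMSO. FABP6, the bile acid-binding protein of the ileum (chromosome 5, 160187367 to 160238735, plus strand), had 10.1, 2.95 and 10.7 in paclitaxel-treated GLI2 KO samples, against 92.7, 94.5 and 74.2 in paclitaxel-treated WT samples. Under DMSO, FABP6 had 5.82, 8.26 and 8.05 in GLI2 KO samples, against 70.5, 66.2 and 64.6 in WT samples. FABP6 had the smallest ratio of the 8 genes, and with TMM-scaled counts in place of the deposited values it was the 1 gene of the 26 that no longer met the rule.

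**Figure D3:**
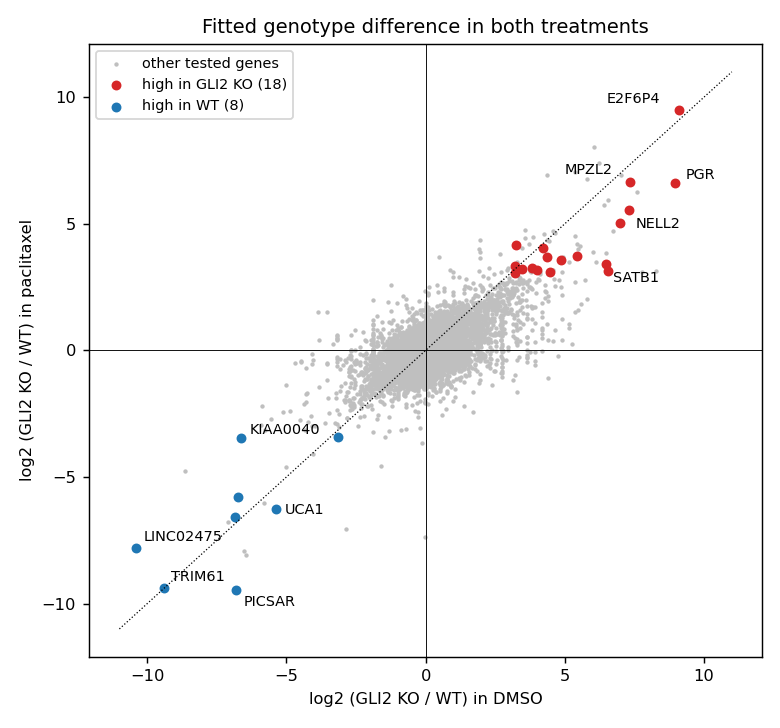
Fitted log2 difference of GLI2 KO to WT in DMSO (x axis) and in paclitaxel (y axis) for every tested gene (grey), the 18 genes high in GLI2 KO (red) and the 8 high in WT (blue); the dotted line marks equal differences. Fitted values of genes with 3 reads or fewer in a group depend on the fit's prior and show direction only; SATB1, at 3.43 in paclitaxel and 6.49 in DMSO, and KIAA0040, at -3.45 in paclitaxel and -6.64 in DMSO, lie far from the line.

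The set has no sharp edge. The smaller of a gene's 2 treatment ratios, each with 1 added to the low mean, was 8.11 for HFM1, 8.33 for DDO and 8.37 for SESN3 just inside the rule on the GLI2 KO side. Just outside it were EYA1 at 7.95, CST1 at 7.82 and B3GALT1 at 7.82. On the WT side FABP6 at 8.01, KIAA0040 at 10.6 and UCA1 at 39.4 were the last inside, and ADGRE1 at 7.84, GAL at 7.68 and SLC22A31 at 7.36 the first outside. Requiring a 4-fold difference gave 85 genes high in GLI2 KO and 27 high in WT, and requiring 16-fold gave 5 high in GLI2 KO and 6 high in WT. Leaving out 1 library took some genes below the rule, as for CST4 and HFM1 above. DDO no longer met it without GLI2 KO paclitaxel replicate 2 or WT paclitaxel replicate 2 or 3, and HFM1 without replicate 2 of either paclitaxel group. SESN3 no longer met it without GLI2 KO paclitaxel replicate 3 or WT paclitaxel replicate 1, ENAM without GLI2 KO paclitaxel replicate 3, PRRX1 without WT DMSO replicate 1 or 2 and ENSG00000287424 without WT DMSO replicate 2. FABP6 no longer met it without GLI2 KO DMSO replicate 1, GLI2 KO paclitaxel replicate 2 or WT DMSO replicate 1.

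Replicate spread differed between the 26 genes. In GLI2 KO cells the 18 genes had a median coefficient of variation of 11.7% in paclitaxel and 13.6% in DMSO, and in WT cells the 8 genes had 11.7% in paclitaxel and 7.81% in DMSO. Over the 15251 genes with a mean of at least 50 over all samples, many of them more abundant, the medians lay between 3.37% and 4.54% per group. After CST4, a wide value was 38.0% for ENSG00000287424 in WT DMSO samples.

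With paclitaxel, PWWP3B, SATB1 and 7 other genes rose and PGR, MPZL2 and DDO fell in GLI2 KO cells, and UCA1 and TRIM61 rose in WT cells. Whether paclitaxel moves these genes inside the genotype where they are high is a comparison the rule did not use, although it asked for a mean of 50 in both treatments. In GLI2 KO cells 12 of the 18 genes passed (adjusted p under 0.05 in edgeR's quasi-likelihood test over all 21974 genes), where 65.2% of all tested genes did. These were 9 genes higher and 3 lower with paclitaxel, where 33.0% of all tested genes were higher and 32.2% lower. The median log2 change of the 18 was 0.25, against 0.018 over all tested genes. In WT cells 2 of the 8 genes passed, where 66.7% of all tested genes did, and both were higher, where 34.6% of all tested genes were higher and 32.1% lower. The median log2 change of the 8 was 0.32, against 0.033 over all tested genes. Samples of the 2 treatments did not overlap for 11 of the 18 genes in GLI2 KO cells, where that held for 67.1% of all tested genes, and for 3 of the 8 genes in WT cells, where it held for 71.6%.

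The 9 genes that rose with paclitaxel in GLI2 KO cells span every role above. PWWP3B rose most, by 1.12 ± 0.083 on the log2 scale (adjusted p = 1.71e-11), followed by SATB1 at 0.74 ± 0.099 (adjusted p = 5.03e-07). SESN3 and PRRX1 rose by 0.62 ± 0.13 and 0.57 ± 0.18 (adjusted p = 0.000419 and 0.0092). All paclitaxel samples lay above all DMSO samples for each of these 4 genes. ENAM rose by 0.45 ± 0.16 (adjusted p = 0.0199), PPFIA2 by 0.32 ± 0.11 (adjusted p = 0.0146), LRRIQ1 by 0.30 ± 0.12 (adjusted p = 0.0354) and E2F6P4 by 0.37 ± 0.13 (adjusted p = 0.0178), and for E2F6P4 the groups overlapped. These smaller rises, and that of PRRX1, each lost the call without at least 1 library. PRRX1 lost it without GLI2 KO paclitaxel replicate 3 (adjusted p = 0.059) and PPFIA2 without GLI2 KO paclitaxel replicate 2 (0.114). ENAM lost it without GLI2 KO DMSO replicate 1 (0.0919) or GLI2 KO paclitaxel replicate 3 (0.129, at 0.29). LRRIQ1 lost it without GLI2 KO DMSO replicate 1 or 3 (0.0802 and 0.114), without GLI2 KO paclitaxel replicate 2 or 3 (0.0709 and 0.12), and with DESeq2 (0.0503). E2F6P4 lost it without GLI2 KO DMSO replicate 1 or 2 (0.115 and 0.098) or GLI2 KO paclitaxel replicate 1 or 3 (0.0527 and 0.0501), and it stood at 0.57 without GLI2 KO DMSO replicate 3.

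PGR, MPZL2 and DDO fell with paclitaxel in GLI2 KO cells. PGR fell by 1.58 ± 0.17 on the log2 scale (adjusted p = 8.46e-09), the largest fall among the 26 genes, to a mean of 76.2 normalized counts in paclitaxel, against 225 in DMSO. MPZL2 fell by 0.70 ± 0.15 (adjusted p = 0.00032) and DDO fell by 0.58 ± 0.19 (adjusted p = 0.00873), and for all 3 genes the treatments did not overlap. With library totals in place of TMM factors, which moved the median of all genes in this comparison up by 0.18, DDO stood at -0.40 (adjusted p = 0.0654). HFM1, CNTN1, NELL2, PLCB2, SIGLEC15 and CST4 did not pass, with log2 changes of -0.020 ± 0.14, 0.21 ± 0.24, -0.0030 ± 0.13, -0.18 ± 0.13, -0.017 ± 0.082 and 0.20 ± 0.40. For CST4 the call turned on GLI2 KO DMSO replicate 3, since without it the change was 1.01 (adjusted p = 3.87e-05).

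In WT cells UCA1 rose with paclitaxel by 1.97 ± 0.11 on the log2 scale (adjusted p = 6.21e-11), the largest change of any of the 26 genes in its high genotype, and all paclitaxel samples lay above all DMSO samples. TRIM61 rose by 0.30 ± 0.088 (adjusted p = 0.0047). KIAA0040 changed by 0.34 ± 0.15 (adjusted p = 0.0523), FABP6 by 0.38 ± 0.20 (adjusted p = 0.0945) and ENSG00000287424 by 0.38 ± 0.24 (adjusted p = 0.169), none of which passed. SELENBP1 at 0.040 ± 0.11, LINC02475 at -0.020 ± 0.17 and PICSAR at -0.093 ± 0.19 lay near 0. The count of 2 became 4 without WT DMSO replicate 2, where KIAA0040 (0.42, adjusted p = 0.0387) and ENSG00000287424 (0.70, adjusted p = 0.0216) passed, and 3 without WT paclitaxel replicate 3, where KIAA0040 passed (adjusted p = 0.0352). KIAA0040 and FABP6 passed with library totals, upper-quartile factors, a minimum count of 50 or only the 2 groups compared.

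**Figure D4:**
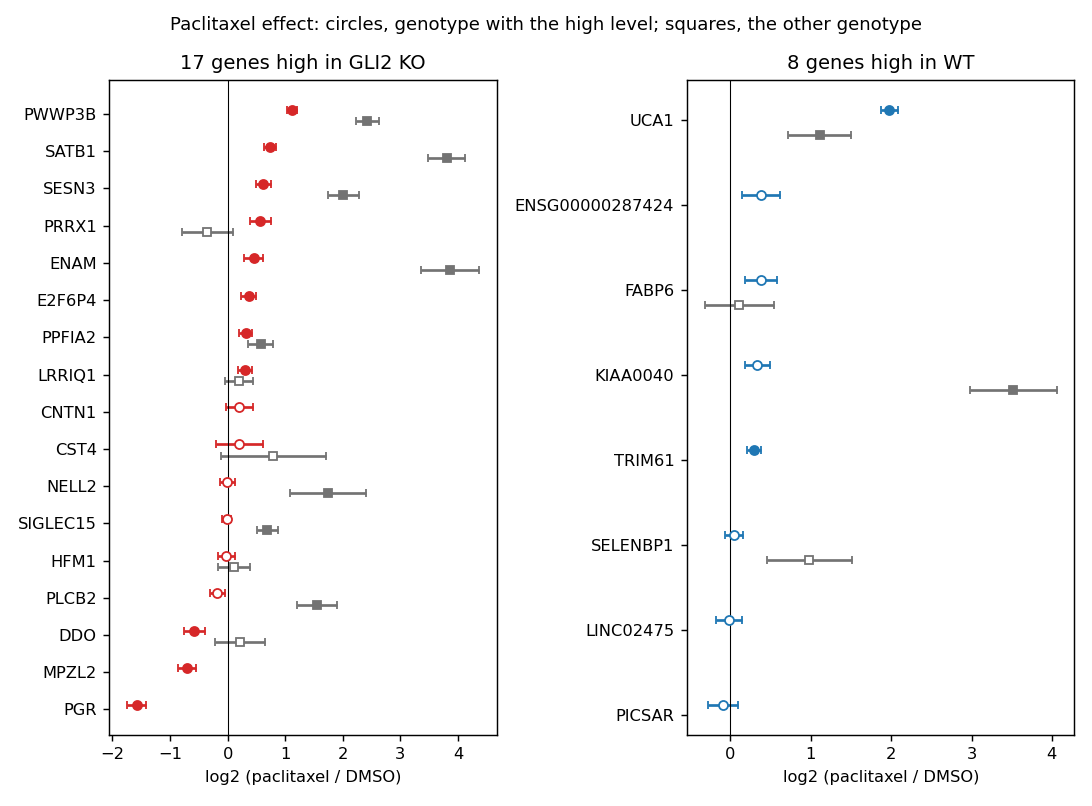
Log2 change with paclitaxel against DMSO (x axis, bars are SE) for 17 genes high in GLI2 KO (left panel) and the 8 high in WT (right panel), in the genotype where the gene is high (circles) and in the other genotype (grey squares, not drawn where a group had 3 reads or fewer); filled marks passed at an adjusted p under 0.05. Among circles UCA1 at 1.97 and PWWP3B at 1.12 lie farthest right and PGR at -1.58 farthest left, and among squares ENAM at 3.86, SATB1 at 3.80 and KIAA0040 at 3.52 lie farthest right.

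Several genes were higher with paclitaxel in the genotype where they are low. This comparison was added after the data were seen, and the rule limits it, since it kept only genes that stayed low in both treatments and a gene near 0 cannot fall. In WT cells 8 of the 18 genes high in GLI2 KO passed, with 34.6% of all tested genes higher and 32.1% lower, and nothing is read from that count. With the count filter applied to the WT samples alone, 11 of the 18 were tested and 6 of them were higher. ENAM rose by 3.86 ± 0.51 on the log2 scale (adjusted p = 2.70e-06), to a mean of 39.7 normalized counts in paclitaxel, against 2.45 in DMSO. SATB1 rose by 3.80 ± 0.32 (adjusted p = 1.53e-10), PWWP3B by 2.42 ± 0.20 (adjusted p = 1.26e-10), SESN3 by 2.01 ± 0.27 (adjusted p = 5.14e-06), PLCB2 by 1.55 ± 0.35 (adjusted p = 0.000485) and SIGLEC15 by 0.69 ± 0.18 (adjusted p = 0.00159). NELL2 at 1.74 ± 0.66 (adjusted p = 0.0242) rested on 18 reads in paclitaxel, against 5 in DMSO, and was tested only through its GLI2 KO counts. It lost the call without WT DMSO replicate 1 (adjusted p = 0.103) or WT paclitaxel replicate 3 (0.382, at 0.83). PPFIA2 at 0.58 ± 0.22 (adjusted p = 0.0234) lost it without WT DMSO replicate 1 (0.127), WT paclitaxel replicate 1 (0.106) or WT paclitaxel replicate 2 (0.0688).

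PGR, MPZL2 and E2F6P4 stayed at 3 reads or fewer over the 3 WT samples of each treatment, which allows no fold. In GLI2 KO cells 2 of the 8 genes high in WT passed, both higher with paclitaxel. Of all tested genes 33.0% were higher there and 32.2% lower, and nothing is read from the count of 2. Those 2 were the only genes of the 8 tested with the count filter on GLI2 KO samples alone. KIAA0040 rose by 3.52 ± 0.54 on the log2 scale (adjusted p = 3.52e-06), to 57 reads in paclitaxel, against 4 in DMSO. UCA1 rose by 1.11 ± 0.39 (adjusted p = 0.0211), a call lost without GLI2 KO DMSO replicate 1, 2 or 3 (adjusted p = 0.0567, 0.0512 and 0.131) or GLI2 KO paclitaxel replicate 2 or 3 (0.0609 and 0.117). TRIM61, LINC02475, PICSAR and ENSG00000287424 had 3 reads or fewer in each GLI2 KO group, and SELENBP1 (0.98 ± 0.53) and FABP6 (0.11 ± 0.43) did not pass. Without GLI2 KO DMSO replicate 3, SELENBP1 passed. Replicates 1 and 2 of that group held only 1.16 and 1.03 normalized counts, which allows no fold. The gene was tested only through its WT counts. Whether paclitaxel acted differently in the 2 genotypes was not tested gene by gene.

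The tested genes nearest to the 18 genes high in GLI2 KO were often higher in GLI2 KO as well. The nearest tested gene on each side, which was not chosen by its own values, was examined for the 25 genes with a position in the annotation. Distance between midpoints differed widely, for example 31.7 kb from ENAM to UTP3 and 1518 kb from SATB1 to EFHB. A neighbour here need not be the adjacent gene. Beside the 18 genes, 21 of 36 neighbours were higher in GLI2 KO than in WT in paclitaxel (58.3%) and 4 lower, against 23.4% higher over all tested genes. In DMSO 19 of 36 were higher (52.8%) and 4 lower, against 22.0% higher over all tested genes. Leaving out neighbours whose span overlaps the gene gave 19 of 31 in paclitaxel and 18 of 31 in DMSO, and 3 neighbours on each side gave 51 of 106 and 49 of 106. Neighbours of the 7 placed genes high in WT gave counts nearer the background: 4 of 14 were lower in GLI2 KO in paclitaxel (28.6%) and 4 higher, against 22.2% lower over all tested genes. In DMSO 4 of 14 were lower (28.6%) and 3 higher, against 19.6% lower over all tested genes. Neighbours share chromosome blocks with each other, so they are not independent of one another.

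Of the 36 neighbours beside genes high in GLI2 KO, 10 differed over 2-fold in at least 1 treatment, and 9 of these are named for that reason, after their values were seen. RADX, which guards stalled replication forks and lies beside PWWP3B, differed by 1.79 ± 0.061 on the log2 scale in paclitaxel and 2.17 ± 0.061 in DMSO (edgeR, adjusted p = 1.87e-17 and 2.95e-19), while NRK on the other side of PWWP3B differed by -0.095 ± 0.052 and -0.036 ± 0.051 and did not pass. LRRIQ1 lies between TSPAN19 and RASSF9, so 3 tested genes in a row were high in GLI2 KO. The midpoint of RASSF9 lies 668 kb from that of LRRIQ1. TSPAN19 differed by 4.06 ± 0.28 in paclitaxel and 3.46 ± 0.46 in DMSO, and RASSF9 by 2.42 ± 0.12 and 2.87 ± 0.17. The DMSO value of TSPAN19 was 5.54 without WT DMSO replicate 1. Beside CNTN1, the kinase gene LRRK2 differed by 2.21 ± 0.23 in paclitaxel and 3.46 ± 0.25 in DMSO. MPZL3, a relative of MPZL2 and its neighbour, differed by 1.30 ± 0.11 and 1.41 ± 0.12, and CST1 beside CST4 by 3.01 ± 0.36 and 4.10 ± 0.57.

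TMEM117 beside NELL2 differed by 1.22 ± 0.17 on the log2 scale in paclitaxel and 0.95 ± 0.14 in DMSO. TRPC6 beside PGR averaged 15.3 normalized counts in GLI2 KO and 3.47 in WT with paclitaxel, and 8.65 in GLI2 KO and 0.294 in WT with DMSO. SLC14A1 beside SIGLEC15 differed by 1.28 ± 0.31 in DMSO (adjusted p = 0.00173) and by 0.32 ± 0.24 in paclitaxel (adjusted p = 0.3). Beside HFM1 both neighbours were higher by less than 2-fold. ZNF644 differed by 0.55 ± 0.033 in paclitaxel and 0.43 ± 0.033 in DMSO, and CDC7 by 0.80 ± 0.037 and 0.79 ± 0.037. Farther out, LINC02609, TGFBR3 and EPHX4 also passed as higher in both treatments, while PHKA1P1 did not pass. A longer stretch of tested genes was thus higher in GLI2 KO, by less than HFM1 itself, whose log2 difference was 3.07 in paclitaxel and 3.21 in DMSO.

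Other genes high in GLI2 KO stood between neighbours that hardly moved. FHL1 beside E2F6P4 stood at -0.17 ± 0.032 on the log2 scale in paclitaxel and -0.15 ± 0.032 in DMSO. DDO lies between CDC40, at 0.016 ± 0.035 and 0.056 ± 0.035, and CDK19, at 0.056 ± 0.039 and -0.053 ± 0.039. Neither side of DDO passed, and FHL1 was slightly lower in GLI2 KO. Among genes high in WT, the neighbours of UCA1 were WIZ, at 0.15 ± 0.033 in paclitaxel and -0.077 ± 0.033 in DMSO, and CYP4F11, a fatty acid hydroxylase gene that was lower in GLI2 KO, at -2.98 ± 0.36 and -3.97 ± 0.39 (adjusted p = 2.17e-07 and 4.89e-09). Both neighbours of TRIM61 were lower in GLI2 KO too, FAM218A at -1.07 ± 0.13 and -1.10 ± 0.16 and TMEM192 at -0.52 ± 0.037 and -0.65 ± 0.038. The span of FAM218A overlaps that of TRIM61, and sharing of reads between them was not tested. LINC00165 beside PICSAR averaged 0.611 normalized counts in GLI2 KO and 18.1 in WT with paclitaxel, and 0.336 in GLI2 KO and 15.3 in WT with DMSO. ENSG00000250863 beside LINC02475 went the other way, at 18.5 in GLI2 KO and 0.596 in WT with paclitaxel, and 8.43 in GLI2 KO and 0.294 in WT with DMSO.

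**Figure D5:**
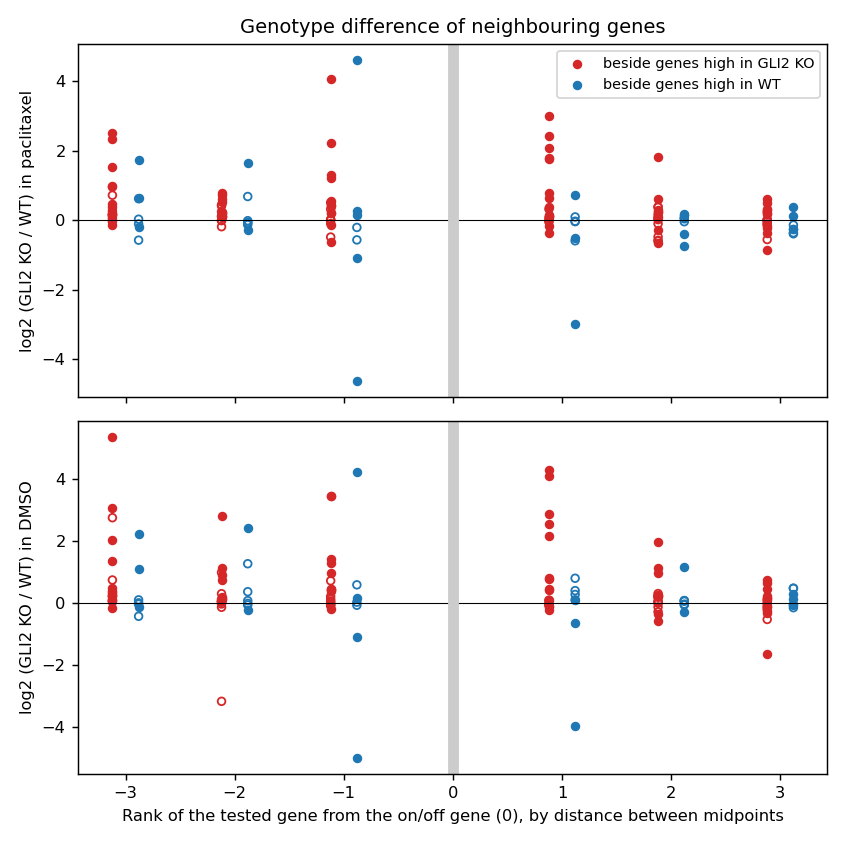
Log2 difference of GLI2 KO to WT (y axis) for the 3 nearest tested genes on each side of every placed gene, by rank of position (x axis, the grey band at 0 is the gene itself), with paclitaxel above DMSO, red for neighbours of genes high in GLI2 KO, blue for neighbours of genes high in WT and filled points for an adjusted p under 0.05. Neighbours beside red genes include several above 2, such as RADX at 2.17 in DMSO, while most neighbours lie near 0.

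The 18 genes high in GLI2 KO lay on 10 chromosomes, with 4 on chromosome 12, 3 on chromosome 11 and 2 each on chromosomes 1 and X. On chromosome 12, CNTN1 and NELL2 were 3.44 Mb apart and PPFIA2 and LRRIQ1 3.28 Mb apart, and on chromosome 11 SESN3 and PGR were 5.80 Mb apart. PRRX1, high in GLI2 KO, lay 4.42 Mb from KIAA0040, high in WT, so opposite genes also stood near each other. Of the 18 genes, 17 were protein-coding and 1 was a processed pseudogene, whereas 4 of the 8 genes high in WT were protein-coding, compared with 64.8% of all tested genes. The median span was 71.9 kb for the 18 genes, 8.43 kb for the placed genes high in WT and 20.6 kb for all tested genes. Exon overlap with another annotated gene was over 20% for TRIM61 and PPFIA2 and under 14% for the other placed genes.

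Gene lists were counted to see what moved beside the 26 genes. Of the 9 luminal breast markers, PGR belonged to the set and ESR1, the estrogen receptor gene, had no entry in the count table. PGR was chosen by its genotype difference, and among the other 7 tested, 5 were higher in GLI2 KO and 2 lower in paclitaxel, and 4 were higher and 2 lower in DMSO. These shares stand against 23.4% of all tested genes higher and 22.2% lower in paclitaxel, and 22.0% and 19.6% in DMSO. GATA3 differed by 0.60 on the log2 scale in paclitaxel and 0.72 in DMSO, and TFF1 by 1.41 and 2.21, both higher, while FOXA1 was lower, at -0.63 and -0.48. Among 4 tested epithelial markers 2 were higher in paclitaxel and 3 in DMSO, led by the splicing regulator ESRP1 at 2.32 and 2.22. CDH1 stood at 1.24 in paclitaxel, 0.81 without GLI2 KO paclitaxel replicate 3, and at 1.29 in DMSO, where it lost the call without GLI2 KO DMSO replicate 3 (0.59, adjusted p = 0.313) or any 1 WT DMSO replicate (0.113, 0.121 and 0.0645).

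Hedgehog components and reported GLI targets held none of the 26 genes. Of all tested genes, 23.4% were higher and 22.2% lower in GLI2 KO in paclitaxel, and 22.0% higher and 19.6% lower in DMSO. Of 16 tested Hedgehog components 3 were higher and 5 lower in GLI2 KO in paclitaxel, and 4 higher and 3 lower in DMSO. Their medians were -0.092 and -0.017 on the log2 scale. GLI2, the targeted gene, was among the lower ones in both treatments. PTCH1, GLI1 and HHIP are on both lists. Of 13 tested GLI targets 2 were higher and 7 lower in paclitaxel, and 4 higher and 5 lower in DMSO, with medians of -0.13 and -0.087, beside -0.0073 and 0.0081 over all tested genes. Markers of basal breast lines summed to 5808 to 6048 CPM in paclitaxel-treated GLI2 KO samples and 6197 to 6230.5 in paclitaxel-treated WT samples, and to 6607 to 6917 CPM in DMSO-treated GLI2 KO samples and 6841 to 6964 in DMSO-treated WT samples. The markers of the labelled line were present in every group. Blood markers summed to 2.30 to 2.94 CPM in paclitaxel-treated GLI2 KO samples and 1.86 to 2.17 in paclitaxel-treated WT samples, and to 0.705 to 0.956 CPM in DMSO-treated GLI2 KO samples and 0.466 to 0.487 in DMSO-treated WT samples. Of 4 tested blood markers 1 was higher in GLI2 KO in paclitaxel and 3 in DMSO. PTPRC, the leukocyte antigen CD45, had 206 reads in GLI2 KO and 35 in WT with paclitaxel, and 70 in GLI2 KO and 13 in WT with DMSO, log2 differences of 2.47 ± 0.29 and 2.49 ± 0.41 (edgeR, adjusted p = 1.12e-07 and 1.59e-05). The defining blood markers CD3E and HBB had no entry. Fibroblast, endothelial and kidney markers summed to at most 86.2, 4.82 and 5.37 CPM in any sample. The part of other cells in the 26 genes was not tested.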

How the data were processed

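Polyadenylated RNA of 12 samples, 3 in each of 4 groups named by the sample titles, was sequenced by the authors. Per the submitters' processing notes, Trim Galore 0.6.7, STAR, DESeq2 1.36.0 and hg38 were used, with no roles given; the counting tool, its annotation and its use of strand are not stated there. The authors deposited raw counts for 25049 genes and a table of normalized signal, equal to the counts over a single factor for each sample (largest relative deviation 5.33e-15). Columns not used numbered 0. The genes were chosen on the normalized values; tests used the counts.

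Counts were tested with edgeR 4.0.16 (quasi-likelihood F test, robust, TMM factors, filterByExpr at a minimum count of 10, R 4.3.3), with 12 samples, 4 group means and 8 residual degrees of freedom. The filter kept 21974 genes (87.7%), all 26 described genes among them. P-values are two-sided, with Benjamini-Hochberg adjustment over all tested genes, and genes passed under 0.05. The SE of a log2 difference is its size divided by the root of F. Where a group held 3 reads or fewer in all, ratios of summed reads per library total with exact binomial 95% intervals replace the fitted folds. Positions are from GENCODE 29 (GRCh38), which placed 93.5% of genes; the annotation used in counting is unknown.

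The genes and lists were chosen with earlier results of these data known. All members are counted, those with a symbol are named except 1 gene high in GLI2 KO that is not reported here, and per-sample values go to the 15 highest of each direction and to those with 3 reads or fewer in a group of the other genotype. Alternatives were DESeq2 1.42.0, other scaling, filters and thresholds, only the groups compared, and leaving out each library.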

Additional observations from a re-analysis of the deposited data

How the results depend on the processing

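Thresholds of the rule moved the sets most: a 4-fold bound gave 85 genes high in GLI2 KO and 27 high in WT, a 16-fold bound gave 5 high in GLI2 KO and 6 in WT, and a mean of at least 100 gave 5 high in WT. Leaving out each library gave 16 to 20 and 7 to 10 genes. Of the 18 genes high in GLI2 KO, 8 to 12 passed with paclitaxel without any 1 library and 11 to 12 under the other alternatives, and the 8 was without GLI2 KO paclitaxel replicate 3. Of the 8 high in WT, 2 to 4 passed without any 1 library, and 4 with library totals, a minimum count of 50, only the 2 groups compared or upper-quartile factors. In the low genotype 6 to 9 (WT) and 1 to 2 (GLI2 KO) passed without any 1 library. The lower GLI2 KO count came without DMSO replicate 1 or 2 or paclitaxel replicate 2 or 3. Without DMSO replicate 3, SELENBP1 passed on very few reads and UCA1 did not. Neighbours passing numbered 29 to 33 in paclitaxel and 24 to 30 in DMSO without any 1 library, and 83 and 78 with 3 on each side, where more genes were counted. Library totals moved the median paclitaxel change of all genes up by 0.18 in GLI2 KO and 0.16 in WT, and upper-quartile factors by 0.12 and 0.13. Changes near 0 that did not pass turned sign: with library totals, upper-quartile factors and a minimum count of 50, HFM1 stood at 0.16, 0.10 and 0.040, NELL2 at 0.17, 0.12 and 0.057, SIGLEC15 at 0.16, 0.11 and 0.043 and LINC02475 at 0.14, 0.11 and 0.048. PICSAR stood at 0.063 and 0.040 with the first pair. With only the 2 groups compared, HFM1, NELL2 and SIGLEC15 stood at 0.0019, 0.019 and 0.0056, and NELL2 was at 0.00083 with DESeq2 and 0.0057 with RLE factors. Without 1 library the ranges were -0.16 to 0.15 for HFM1, -0.12 to 0.066 for NELL2, -0.29 to 0.029 for PLCB2, -0.069 to 0.074 for SIGLEC15, -0.15 to 1.01 for CST4 and -0.14 to 0.14 for LINC02475. No paired analysis was possible because each library has its own number in the titles and no label states that neighbouring numbers belong together.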

Other observations

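Some genes met the rule in 1 treatment only, and these examples were picked after their values were seen. VIP, a neuropeptide hormone, averaged 66.7 normalized counts in GLI2 KO and 5.93 in WT with paclitaxel, and 4.28 in GLI2 KO and 0 in WT with DMSO. RUNX1T1, a transcriptional corepressor known from leukaemia fusions, averaged 81.1 normalized counts in GLI2 KO and 2.97 in WT with paclitaxel, and 9.12 in GLI2 KO and 0.684 in WT with DMSO. Both met it in paclitaxel alone. RAB17, a small GTPase of epithelial cells, met it in DMSO alone and averaged 1907 normalized counts in GLI2 KO and 335 in WT with paclitaxel, and 929 in GLI2 KO and 71.3 in WT with DMSO. FABP4, the fat cell relative of FABP6, was high in WT in DMSO alone and averaged 20.9 normalized counts in GLI2 KO and 31.996 in WT with paclitaxel, and 12.6 in GLI2 KO and 114 in WT with DMSO. KDR, a receptor for VEGF and one of the endothelial markers counted, was also high in WT in DMSO alone and averaged 78.8 normalized counts in GLI2 KO and 256 in WT with paclitaxel, and 9.41 in GLI2 KO and 186 in WT with DMSO.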
